A study of Homo sapiens with 4 samples.

Results

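The array titled LNCaP was set against the array titled PC3-H, the arrays of different prostate cancer lines that both carry the high label for the laminin-binding O-glycan. Of 14006 genes with a named probe, 11156 were compared, namely those with a value at or above the 40th percentile of all probes on at least 1 array of the pair, 34.2 on LNCaP and 34.8 on PC3-H. The comparison has 1 array a side, so differences have no replicate check and no p-value is given. It asks how far cultures that share the glycan label and a label of low motility and invasion differ in expression when the line differs.

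LNCaP is an established line from a lymph node metastasis, here labelled androgen-dependent. PC3-H is made of PC3 cells, an established androgen-independent line from a bone metastasis, isolated with IIH6C4, an antibody against the laminin-binding glycan. No antibody isolation is given for the LNCaP culture. All cultures of the series were grown in RPMI1640 medium with fetal bovine serum. Line, site of origin, androgen dependence and isolation all differ between the arrays and cannot be told apart. The free-text descriptions go against titles and source names: they call PC3-H low and LNCaP moderate for the glycan, and LNCaP androgen-independent. The other 2 arrays, PC3-L (the PC3 cells of low glycan label) and the array labelled LNCaP-AI (derived from LNCaP with charcoal-stripped serum and, by its description alone, grown with medium conditioned by perineural cells), are given beside the members as a description. At line markers the array labelled LNCaP-AI goes against its label, with KLK3 at 61.2 against 1781 on LNCaP and 63.4 on PC3-L.

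Luminal prostate cells depend on the androgen receptor, which binds DNA as a dimer at paired half-sites and drives secretory genes such as the kallikreins. LNCaP keeps this programme, whereas PC3 has lost it and is known for basal-like and inflammatory gene expression. NF-kB, the factor behind many chemokine genes, binds short kappa B sites close to their start.

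Upstream sequence is shown for KLK3 and KLK2, kallikrein genes higher on LNCaP, and for CXCL5 and CXCL8, chemokine genes higher on PC3-H, because they hold the motif of the factor that their gene group is known for. Each run is the 250 bases before the RefSeq start of the gene (build GRCh38.p14), written 5′ to 3′ on the gene's strand. Capitals mark a match to the core of the androgen response element (GNACA, 4 bases of any kind, GTNC) in the kallikreins, and to GGAATTTCC, a kappa B site, in the chemokines. Both strands were searched, and the motifs do not overlap.
KLK3, chr19:50854665-50854914, plus strand: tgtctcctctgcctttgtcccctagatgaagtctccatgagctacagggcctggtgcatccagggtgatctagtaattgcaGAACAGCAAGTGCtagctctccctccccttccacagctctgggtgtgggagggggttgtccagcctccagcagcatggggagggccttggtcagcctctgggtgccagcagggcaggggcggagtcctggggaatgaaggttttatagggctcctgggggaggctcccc
KLK2, chr19:50873189-50873438, plus strand: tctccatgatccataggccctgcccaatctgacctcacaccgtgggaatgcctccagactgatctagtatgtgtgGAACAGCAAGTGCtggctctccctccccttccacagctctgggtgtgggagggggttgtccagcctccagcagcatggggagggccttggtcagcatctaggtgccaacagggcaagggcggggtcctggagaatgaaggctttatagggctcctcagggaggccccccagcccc
CXCL5, chr4:73998678-73998927, minus strand: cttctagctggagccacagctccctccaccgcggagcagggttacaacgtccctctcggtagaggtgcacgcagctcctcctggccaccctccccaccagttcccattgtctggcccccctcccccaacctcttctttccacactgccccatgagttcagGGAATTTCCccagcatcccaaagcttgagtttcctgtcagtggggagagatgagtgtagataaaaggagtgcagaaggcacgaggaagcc
CXCL8, chr4:73740319-73740568, plus strand: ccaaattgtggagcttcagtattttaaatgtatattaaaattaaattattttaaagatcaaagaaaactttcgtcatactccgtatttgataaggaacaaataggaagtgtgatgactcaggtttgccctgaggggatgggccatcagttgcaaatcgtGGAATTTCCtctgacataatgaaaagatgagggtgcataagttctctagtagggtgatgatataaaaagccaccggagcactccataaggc

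The androgen response element core was the same 13 letters in both kallikreins, beginning 169 bases before the start in KLK3 and 175 bases before it in KLK2. These promoters also shared an unbroken identical stretch of 80 bases. The kappa B letters began 90 bases before the start in CXCL5 and 91 bases before it in CXCL8. Of 27305 RefSeq promoters of this length 1.76% held the androgen element core and 0.428% the kappa B letters. A match is a description of letters, not of a bound site.

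Of the 11156 genes, 609 (5.46%) were 2-fold or more higher on LNCaP and 501 (4.49%) lower, 1110 in all (9.95%). At 4-fold the order turned: 220 genes passed (1.97%), 91 higher (0.816%) and 129 lower (1.16%). At 8-fold 76 passed (0.681%), 30 higher (0.269%) and 46 lower (0.412%). The median log2 difference over all genes compared was −0.01, with 90% of genes between −0.94 and 1.03. In 221 of the 1110 genes (19.9%) the dimmer array lay under its own 40th percentile. Values there are dim, and how well the size of these folds is measured was not tested. At the edge of the filter, TECTB was just inside at 34.8 on PC3-H and VPS13A-AS1 just outside at 34.2 on LNCaP. BABAM1 was just past 2-fold (179 on LNCaP, 360 on PC3-H) and PI4K2B just within it (116 and 57.6). Folds are on the log2(intensity + 1) scale throughout.

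**Figure D1:**
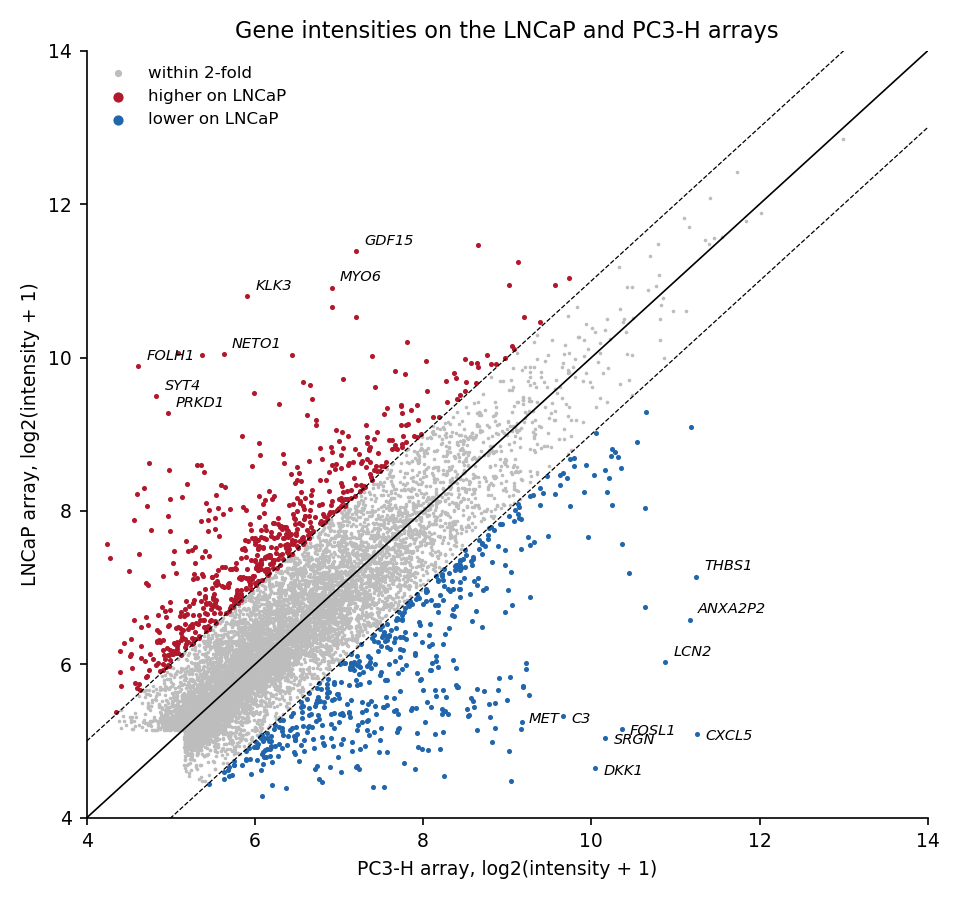
Intensity of each gene on the PC3-H array (horizontal axis) and the LNCaP array (vertical axis), both as log2(intensity + 1), for genes past the filter; Y-linked genes are not drawn. The solid line marks equal values and the dashed lines 2-fold. FOLH1 and KLK3 lie far above the band and CXCL5 and DKK1 far below it.

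Line markers followed the line labels. The gene of prostate-specific membrane antigen, FOLH1, had the largest difference higher on LNCaP, at 944 against 23.4 (38.7-fold). The array labelled LNCaP-AI read 24.2, and PC3-L was likewise close to PC3-H, so LNCaP alone was high. KLK3, which encodes prostate-specific antigen, was 1781 on LNCaP and 59.0 on PC3-H (29.7-fold). HOXB13, a homeobox factor of prostate epithelium, was 407 on LNCaP and 110 on PC3-H (3.68-fold). SPDEF, an ETS factor of luminal cells, was 566 on LNCaP and 306 on PC3-H, within 2-fold. The luminal factor HOXB13 was lower still on PC3-L, at 45.1, and so was SPDEF, at 56.5, so that PC3-H stood between the other arrays for both. PCA3, a prostate non-coding RNA, did not pass the filter (26.3 and 24.7). In all, 4 of 5 LNCaP markers past the filter were 2-fold or more higher and 0 lower (median log2 difference 2.75, against −0.01 over all genes).

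Of 8 PC3 markers, 6 were 2-fold or more lower on LNCaP and 0 higher (median −3.29). The receptor kinase gene AXL was 47.4 on LNCaP and 609 on PC3-H (log2 difference −3.66). CD44, the hyaluronan receptor, was 23.9 and 239 (9.66-fold), and the ephrin receptor gene EPHA2 was 55.4 and 479 (8.50-fold). ANXA1, which encodes the phospholipid-binding protein annexin A1, was 28.9 on LNCaP and 294 on PC3-H (9.86-fold). Across the other arrays, PC3-L first, CD44 stood at 318 and 297 and ANXA1 at 1269 and 834, so LNCaP alone was low for both.  VIM, the mesenchymal intermediate filament, was 65.1 on LNCaP and 104 on PC3-H, within 2-fold, while it was 896 on PC3-L. UCHL1, a neuronal deubiquitinase, was 54.1 and 57.4.

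Markers of other cell types were within 2-fold between the arrays, apart from CD68 and ERBB3. Fibroblast markers summed to 67.3 on LNCaP and 76.1 on PC3-H over the 2 measured, THY1 and LUM. The 6 endothelial markers summed to 262 and 279, the brightest being the junction gene CLDN5 (67.4 and 73.4) and the adhesion gene ESAM (49.1 and 55.7). Of 6 leukocyte markers, summing to 555 and 860, the actin-bundling gene LCP1 was 276 and 379 and the lysosomal gene CD68 102 and 290 (2.82-fold lower on LNCaP), while CD14 and LYZ stayed under the filter. The 5 perineurial and Schwann cell markers summed to 390 and 305, the brightest being ERBB3, a receptor also found on epithelium (188 and 80.8), and MBP (65.6 and 67.6). The erythroid marker AHSP was 28.4 and 30.8, under the filter. In bulk RNA, fewer cells of a type and less RNA per cell cannot be told apart, and the part of these markers in the differences below was not tested.

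The 15 largest differences higher on LNCaP held secretory, neural and membrane genes. MME, the membrane peptidase neprilysin, was 1064 on LNCaP and 32.9 on PC3-H (31.4-fold), and it was also high on PC3-L, at 1008. SYT4, a synaptotagmin of vesicle release, was 723 and 27.4 (25.5-fold), and the neural adhesion gene NCAM2 was 1052 and 40.3 (25.5-fold). NETO1, an auxiliary subunit of glutamate receptors, was 1059 and 48.5 (21.4-fold). These neural genes, unlike MME, were far lower on every other array. PRKD1, a kinase of the diacylglycerol pathway, was 620 and 30.2 (19.9-fold). GDF15, a stress-induced secreted factor, was 2683 and 147 (18.2-fold). MYO6, a motor protein of endocytosis, was 1924 and 119 (log2 difference 4.00), and the androgen-regulated membrane gene TMEFF2 was 394 and 25.8 (14.7-fold). PLPP1, a lipid phosphatase, was 1623 and 120 (13.4-fold), and MAOA, which breaks down monoamines, was 1047 and 85.9 (12.1-fold). LUZP2 (298 and 23.2), the receptor gene GPR158 (369 and 30.5) and the actin-linked gene LIMCH1 (743 and 62.8) completed the set. GPR158 had a second probe, within 2-fold (35.5 and 40.7). Of these 15 genes, 12 were within 2-fold of PC3-H on PC3-L, and MME was the 1 gene within 2-fold of LNCaP there.

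The 15 largest differences in the other direction were led by CXCL5, a chemokine that draws neutrophils, at 33.2 on LNCaP and 2454 on PC3-H (71.8-fold). DKK1, a secreted Wnt antagonist, was 24.0 and 1054 (42.2-fold). FOSL1, an AP-1 subunit, was 34.8 and 1314 (36.8-fold), and the granule proteoglycan SRGN 32.0 and 1148 (34.8-fold). LCN2, an iron-siderophore binding protein of innate defence, was 64.5 and 1881 (28.7-fold), and complement C3 was 39.0 and 810 (20.3-fold). The pseudogene ANXA2P2 was 95.0 and 2299 (24.0-fold), and its probe may not tell it from ANXA2, of which it is a close copy. The matricellular gene THBS1 was 140 and 2427 (17.2-fold), the receptor kinase gene MET 34.8 and 571 (log2 difference −4.00), and the membrane gene EMP3 37.2 and 575 (15.1-fold). IER3, an early response gene, was 107 and 1589 (14.8-fold), and its 11 probes were all lower on LNCaP. Their log2 differences fell in separate groups, from −4.10 to −3.88 and from −1.03 to −1.01. Many probes of a group had nearly equal intensities, so the probes may not be independent measures. TFPI2, a protease inhibitor, was 30.7 and 450.0 (14.2-fold), CXCL8, which encodes interleukin-8, 22.3 and 302 (log2 difference −3.70), and the cytidine deaminase gene CDA 35.0 and 462 (12.9-fold). AXL was the last of the set.

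These 15 genes fell apart by their level on the other PC3 array. PC3-L was within 2-fold of PC3-H at 5 of them, FOSL1, ANXA2P2, MET, CXCL8 and AXL. It was within 2-fold of LNCaP at 6, CXCL5, DKK1, SRGN, LCN2, C3 and CDA. For CXCL5, PC3-L stood at 30.7 and the array labelled LNCaP-AI at 34.2, so 1 array of 4 was high. For FOSL1 they stood at 1002 and 1192, so LNCaP alone was low.

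**Figure D2:**
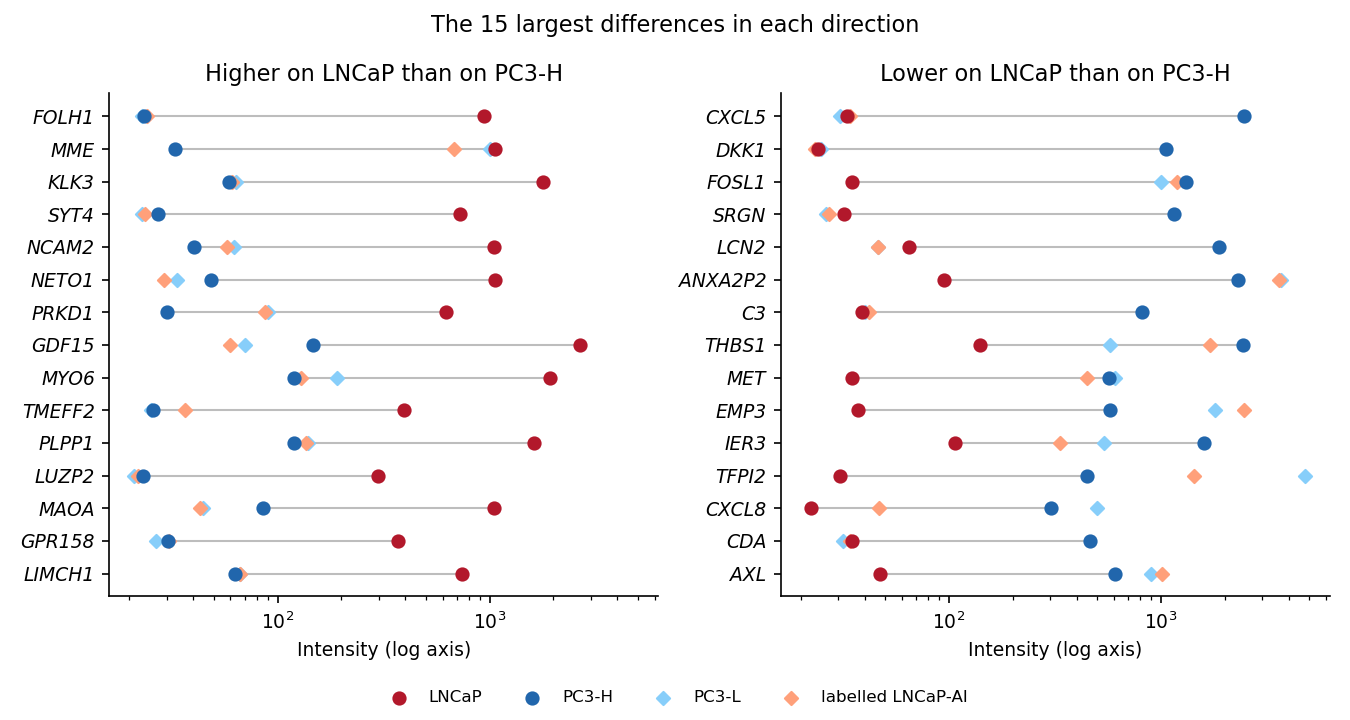
Intensity (log axis) of the 15 genes with the largest differences higher (left) and lower (right) on LNCaP than on PC3-H, 1 point per array and gene, with a grey line joining LNCaP to PC3-H. On the left the PC3-L diamond is within 2-fold of PC3-H for 12 of 15 genes; on the right the diamonds of PC3-L and of the array labelled LNCaP-AI sit near LNCaP for CXCL5, DKK1, SRGN, LCN2, C3 and CDA.

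Androgen-induced genes were higher on LNCaP as a group: 11 of 15 past the filter were 2-fold or more higher and 1 lower (median 2.08), against 5.46% and 4.49% of all genes. Behind KLK3, PLPP1 and TMEFF2 came KLK4, a kallikrein protease, at 325 on LNCaP and 35.7 on PC3-H (8.87-fold). STEAP1, a membrane reductase-family protein of prostate cancer, was 290 and 34.2 (8.27-fold). KLK2, a protease that cleaves the KLK3 precursor, was 323 and 47.3 (6.71-fold). The 1 lower gene was the metalloreductase STEAP4, at 29.8 and 82.6 (2.72-fold). FKBP5, a chaperone of steroid receptors, was 102 and 65.4, and the metastasis-linked gene NDRG1 155 and 161, both within 2-fold. Against PC3-L the median of the list was 1.44. Among the 11 higher genes 8 had a promoter in the RefSeq table, and 3 of these, KLK3, KLK2 and CENPN, held the androgen element core; none held the kappa B letters. The list was made of genes known for androgen induction, and its other members were not counted, so this says nothing about the difference between the arrays. The androgen receptor gene itself is not analysed here.

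Luminal transcription factors had 5 of 13 members 2-fold or more higher and 0 lower (median 0.76), against 5.46% and 4.49% of all genes. EHF, an epithelial ETS factor, was 902 on LNCaP and 202 on PC3-H (4.45-fold). FOXA1, a pioneer factor that opens chromatin for the androgen receptor, was 500 and 161 (3.10-fold), and GATA2, which acts beside it, was 229 and 74.1 (3.06-fold). GRHL2, a factor of epithelial junction genes, was 287 and 129 (2.21-fold). EHF, FOXA1 and GRHL2 were dimmer on PC3-L (33.7, 35.4 and 29.3) than on PC3-H. Factors within 2-fold included GATA3 (51.2 and 61.4) and SIM2 (69.8 and 134).

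Fatty acid genes had 8 of 24 members 2-fold or more higher and 1 lower (median 0.78), against 5.46% and 4.49% of all genes. ACSL1, which activates long-chain fatty acids, was 260 on LNCaP and 51.1 on PC3-H (5.02-fold), and ACACA, the carboxylase that starts fatty acid synthesis, was 784 and 171 (4.58-fold). The elongases ELOVL5 (455 and 119) and ELOVL7 (142 and 40.8) were 3.82-fold and 3.41-fold higher. SCD, which makes monounsaturated fatty acids, was 1006 and 360 (2.79-fold), though the mean over its probes gave a log2 difference of 0.95 and PC3-L stood at 1978. ACSL4, the arachidonate-preferring relative of ACSL1, ran the other way, at 29.7 and 157 (5.15-fold lower). The list of amino acid and unfolded protein stress genes had 8 of 20 members 2-fold or more higher and 0 lower (median 0.72). PSAT1, a serine synthesis enzyme, was 996 and 261 (3.80-fold), the mTOR inhibitor DDIT4 556 and 212 (2.61-fold), and the asparagine synthetase gene ASNS 244 and 95.4 (2.54-fold). The sestrin gene SESN2 (170 and 69.7, 2.42-fold) and the stress factor DDIT3 (76.8 and 31.8, 2.38-fold) followed. Against PC3-L the medians were 0.53 for the fatty acid list and 0.16 for the stress list, and PSAT1, ASNS and SESN2 were higher on PC3-L (1185, 431 and 205) than on LNCaP.

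Steroid enzymes had 2 of 5 members 2-fold or more higher and 0 lower (median 0.70). Over all genes 5.46% were higher and 4.49% lower. Beside these shares the cholesterol, hypoxia and detoxification counts below, of at most 2 genes each way, are small. HSD11B2, which inactivates cortisol, was 264 on LNCaP and 57.1 on PC3-H (4.56-fold), and the peroxisomal enzyme HSD17B4 was 337 and 108 (3.09-fold). Cholesterol genes had 2 of 16 members 2-fold or more higher and 1 lower (median 0.17). These were INSIG1, the sterol sensor partner (166 and 68.7), and MSMO1 (163 and 74.0) on the higher side, and EBP (135 and 288) on the lower. Against PC3-L the median of the cholesterol list was −0.88 and all 3 genes had the opposite sign. Hypoxia and glycolysis genes had 2 of 17 members 2-fold or more higher and 0 lower (median 0.13), both of them mitophagy receptors, BNIP3 (1979 and 756, 2.62-fold) and BNIP3L (702 and 337, 2.08-fold). Detoxification genes were higher in 2 of 16, GSTA4 (194 and 59.6) and MGST2 (231 and 100.1). They were lower in 2, GSTM4 (23.6 and 50.3) and GSTP1, the glutathione transferase whose silencing is a known mark of prostate cancer, at 117 on LNCaP and 619 on PC3-H (5.26-fold).

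Innate defence and NF-kB genes were the list with the single largest difference and were lower on LNCaP in 16 of 25, with 0 higher (median −1.35, against −0.01 over all genes). After CXCL5, LCN2, C3 and CXCL8 came SLPI, a protease inhibitor of mucosal surfaces, at 145 on LNCaP and 1393 on PC3-H (9.53-fold). ICAM1, the leukocyte adhesion ligand, was 49.8 and 474 (9.35-fold), PTGS2, which makes prostaglandins, 28.5 and 266 (9.05-fold), and the cytokine gene IL18 20.1 and 184 (8.75-fold). The NF-kB subunit genes of the list with a named probe were within 2-fold, NFKB2 at 122 and 159 and RELB at 88.5 and 112. Other subunit genes are not given here. Kappa B letters stood in the promoters of 6 of the 11 lower genes with a RefSeq promoter, CXCL2, CXCL3, CXCL5, CXCL6, CXCL8 and ICAM1, and none of the 11 held the androgen element core. The list was made of genes known for NF-kB, and members within 2-fold were not counted, so these letters say nothing about the difference between the arrays. The CXCL genes among them are related neighbours on chromosome 4 and not independent promoters. The list differed between the PC3 arrays: against PC3-L its median was −0.23. There CXCL5, LCN2, C3, SLPI, ICAM1, IL18 and PTGS2 stood at 30.7, 46.1, 40.2, 29.1, 64.9, 20.5 and 83.0. Other lower members were not dim on PC3-L: CXCL8 was 497 there and 302 on PC3-H, and CXCL6 203 and 151. CXCL2 was likewise 152 and 160, and LIF 214 and 241.

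Output genes of EGFR, RAS and MAPK signalling had 15 of 25 members 2-fold or more lower on LNCaP and 1 higher (median −1.16). Over all genes 4.49% were lower and 5.46% higher. FOSL1, MET, IER3 and EPHA2 were among the lower members, with HBEGF, an EGFR ligand, at 42.4 on LNCaP and 388 on PC3-H (8.97-fold). DUSP6, a phosphatase that feeds back on ERK, was 39.4 and 106 (2.66-fold), and the feedback gene SPRY2 was 29.7 and 72.0 (2.37-fold). The ETS factors of this list split: ETV4 was 7.66-fold lower on LNCaP, with 313 on PC3-H, while ETV1, which is known to be rearranged in LNCaP, was 363 and 41.0 (8.66-fold higher). EGFR itself was 356 and 651, within 2-fold. DUSP5, past 2-fold by its brightest probe (53.7 and 121), had a log2 difference of −0.61 as the mean of its probes. Against PC3-L the median of the list was −2.09, and DUSP6 and SPRY2 were brighter there (560 and 185) than on PC3-H.

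YAP-TEAD targets, genes of the growth pathway that senses cell contact and tension, had 9 of 13 members 2-fold or more lower on LNCaP and 0 higher (median −1.75). Over all genes 4.49% were lower and 5.46% higher. After THBS1 and AXL came MYOF, a membrane repair protein, at 34.4 on LNCaP and 399 on PC3-H (11.3-fold). FJX1 was 39.8 and 298 (7.34-fold), and IGFBP3, a binding protein of insulin-like growth factors, 47.2 and 283 (5.90-fold). All 13 members had a difference below 0, of which ARHGEF17 was the smallest at −0.18. CCN2 was just past 2-fold at 36.0 and 74.6, and its second probe was within 2-fold (22.9 and 21.5). Against PC3-L the median was −2.33.

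**Figure D3:**
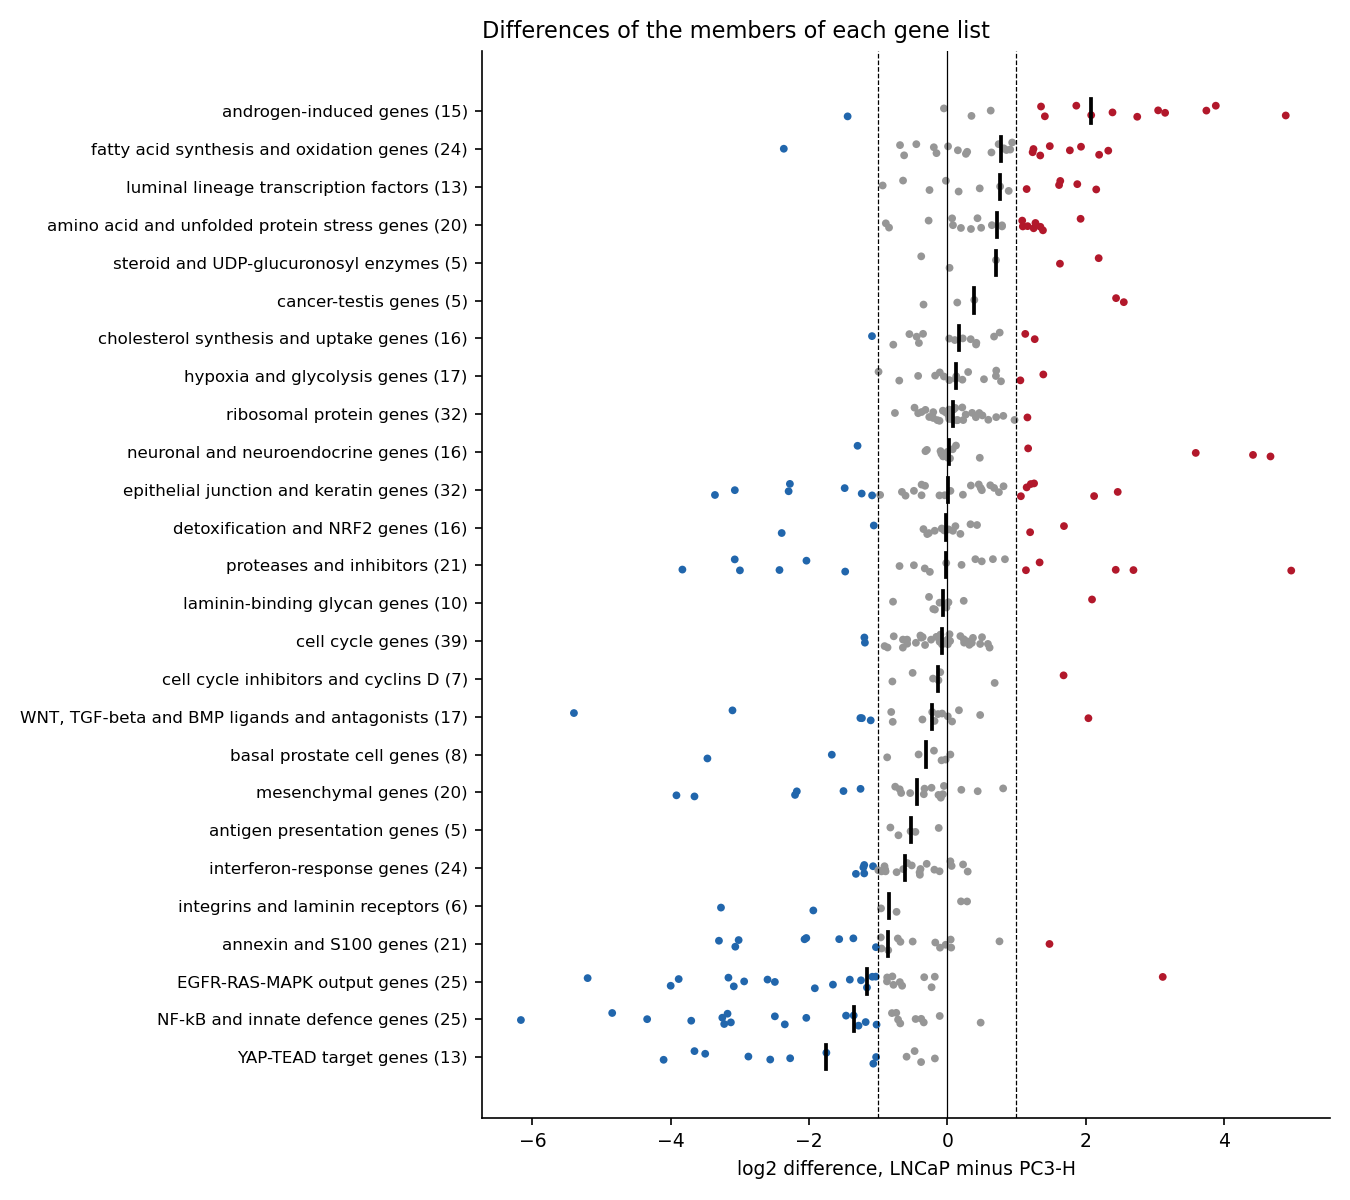
Log2 difference, LNCaP minus PC3-H, of each list member past the filter (1 point per gene, red 2-fold or more higher, blue 2-fold or more lower, grey within 2-fold), for the lists described with at least 5 such genes, line and cell type markers left out; the number in brackets is that count and the black bar the median. Dashed lines mark 2-fold. Among the lists drawn, androgen-induced genes have the highest median and the YAP-TEAD, innate defence and MAPK lists the lowest, while cell cycle and ribosomal genes centre on 0. Some genes are in more than 1 list.

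Epithelial junction and keratin genes had no direction as a group, with 6 of 32 higher and 7 lower (median 0.00), against 5.46% and 4.49% of all genes. Among the lower members were 3 keratins, the only ones past 2-fold of 21 KRT genes past the filter (0 higher, median −0.22): KRT19 was 44.2 and 463 (10.3-fold), KRT80 44.9 and 385 (8.41-fold) and KRT7 28.3 and 141 (4.84-fold). The desmosomal plaque gene PKP1 was 33.9 and 170.0 (4.91-fold lower) and the membrane protease ST14 160 and 449 (2.80-fold lower). The tight junction gene CLDN1 was 28.1 and 67.5 (2.36-fold lower). Other junction genes were higher: OCLN, of tight junctions, was 228 and 109 (2.09-fold). DSC2, a desmosomal cadherin, was 581 on LNCaP and 104 on PC3-H (5.52-fold), and MARVELD2, of tricellular junctions, 257 and 58.3 (4.35-fold). DSP, which ties desmosomes to keratin, was 583 and 244 (2.39-fold), and ERBB3 and GRHL2 were 2.31-fold and 2.21-fold higher. The luminal keratins KRT8 (123 and 88.0) and KRT18 (732 and 1436) were within 2-fold, and so were the claudins CLDN3 (334 and 323), CLDN4 (62.9 and 44.2) and CLDN7 (486 and 355) and the desmosomal cadherin DSG2 (534 and 303). The adhesion gene EPCAM was 314 on LNCaP and 667 on PC3-H (2.13-fold lower), against 30.1 on PC3-L. Of the other lower members, KRT19, KRT80, KRT7 and PKP1 stood near LNCaP on PC3-L, at 48.8, 41.7, 32.7 and 33.4. ST14 was lower there than on LNCaP, at 45.6, while CLDN1 was 91.2. Against PC3-L the median of the list was 0.89.

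Mesenchymal genes had 6 of 20 members 2-fold or more lower on LNCaP and 0 higher (median −0.44), against 4.49% and 5.46% of all genes. After EMP3 and AXL, FSTL1, a secreted glycoprotein, was 26.7 and 126 (4.60-fold), and MSN, a linker of membrane and actin, was 268 and 1217 (4.52-fold). ENG, a co-receptor of the TGF-beta family, was 52.8 and 151 (2.83-fold). The transcription factors of epithelial-mesenchymal transition did not reach 2-fold: SNAI2 was 57.6 and 93.5, ZEB1 36.5 and 38.2, and TWIST1 34.6 and 44.0. On PC3-L, SNAI2 was 634 and ZEB1 225. Basal cell genes had 2 of 8 members 2-fold or more lower and 0 higher (median −0.30), SFN (51.6 and 582, 11.1-fold) and the hemidesmosome linker DST (40.4 and 131, 3.18-fold). KRT14 (37.5 and 36.3) and KRT5, which did not pass the filter (27.0 and 24.5), were dim on both arrays.

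Annexin and S100 genes had 8 of 21 members 2-fold or more lower on LNCaP and 1 higher (median −0.85). Over all genes 4.49% were lower and 5.46% higher. After ANXA1, ANXA3 was 25.1 and 218 (8.37-fold), S100A16 29.2 and 244 (8.10-fold), S100A10, the partner of annexin A2, 24.5 and 106 (4.18-fold), and the calprotectin subunit gene S100A9 58.0 and 242 (4.11-fold). The 1 higher was ANXA9 (99.3 and 35.0, 2.78-fold). The list median was −0.23 against PC3-L. Proteases and inhibitors had 5 of 21 members 2-fold or more higher and 6 lower (median −0.02). Higher on LNCaP besides MME were MMP16, a membrane metalloprotease (274 and 41.6, 6.46-fold), the coagulation inhibitor TFPI (177 and 32.0, 5.41-fold), and the sheddases ADAM10 (486 and 192, 2.52-fold) and ADAM9 (685 and 311, 2.20-fold). Lower besides TFPI2 were the aminopeptidase ANPEP (49.2 and 421, 8.42-fold), the inhibitor TIMP1 (46.4 and 378, 7.99-fold), the membrane collagenase MMP14 (23.2 and 129, 5.38-fold) and the cystatin CST6 (68.3 and 283, 4.10-fold). On PC3-L the higher genes MMP16, TFPI, ADAM10 and ADAM9 stood at 196, 155, 406 and 851, nearer to LNCaP than to PC3-H. The lower genes ANPEP, TIMP1 and MMP14 stood at 1278, 998 and 216 there, and CST6 at 61.8. Against PC3-L the median of the protease list was −0.13. MMP1, an interstitial collagenase, was under the filter on both arrays (28.2 and 27.4), against 3143 on PC3-L.

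Among ligands and antagonists of the WNT, TGF-beta and BMP pathways, 5 of 17 were lower and 1 higher (median −0.22). Over all genes 4.49% were lower and 5.46% higher. The list members that differed were mostly secreted antagonists. After DKK1, the activin antagonist FST was 41.7 and 367 (8.61-fold), FSTL3 78.6 and 189 (2.39-fold) and the BMP antagonist NOG 48.8 and 116 (2.35-fold). LTBP1, which stores latent TGF-beta in the matrix, was 42.4 and 92.6 (2.15-fold). BAMBI, a decoy receptor of the family, was 159 and 38.0 (4.11-fold higher). On PC3-L the antagonists DKK1, FST, FSTL3 and NOG were within 2-fold of LNCaP. Their log2 differences, LNCaP minus PC3-L, were −0.05, 0.17, −0.49 and −0.07. LTBP1 was brighter on PC3-L, at 195, than on PC3-H, and BAMBI, at 32.9, stood near PC3-H. The list median was −0.16 against PC3-L. Neuronal and neuroendocrine genes had 4 of 16 members 2-fold or more higher and 1 lower (median 0.02). Besides SYT4, NETO1 and MAOA the higher gene was CPE, a prohormone-processing peptidase (79.8 and 34.9, 2.25-fold), and the lower was the adhesion gene L1CAM (39.5 and 98.6, 2.46-fold). Classical neuroendocrine markers did not differ past 2-fold, CHGA at 38.1 and 37.9, SYP at 58.2 and 56.6 and INSM1 at 54.6 and 58.5.

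The laminin-binding glycan, on which the arrays share their label, is a sugar polymer that O-mannosyl enzymes build on alpha-dystroglycan. Of its 10 genes measured 1 was past 2-fold, against 9.95% of all genes. POMK, the kinase that phosphorylates the core mannose, was 530 on LNCaP and 123 on PC3-H (4.26-fold), with 211 on PC3-L and 190 on the array labelled LNCaP-AI. LARGE2, which extends the polymer, was 92.5 and 160 (log2 difference −0.79), and 54.3 on PC3-L. The initiating transferases POMT1 (92.8 and 107) and POMT2 (84.2 and 101) and the transferase POMGNT2 (75.3 and 81.5) were within 2-fold. So were RXYLT1 (54.3 and 54.1), the sugar donor genes GMPPB (96.0 and 109), DPM3 (105 and 106) and DOLK (146 and 124), and the sulfotransferase CHST10 (57.0 and 56.3). The list median was −0.06. Of 6 genes in the integrin and laminin receptor list, none an integrin, CD44 and the syndecan SDC4 (303 and 1162, 3.83-fold) were lower on LNCaP. BCAM, a laminin receptor, was 94.3 and 82.1, SDC1 146 and 243, SDC2 36.5 and 29.7, and CD151, a tetraspanin that binds laminin receptors, 136 and 265.

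Interferon-response genes had 5 of 24 members 2-fold or more lower on LNCaP and 0 higher (median −0.61). These were GBP3 (30.3 and 77.2), IRF7 (42.2 and 99.3), IFITM2 (168 and 387), ISG15 (110 and 254) and IFITM3 (45.8 and 97.6), by 2.11-fold to 2.50-fold. Against PC3-L the median was 0.02. Antigen presentation genes were past 2-fold in 0 of 5 (median −0.53), with B2M at 158 and 280 and TAPBP at 137 and 224. Cell cycle genes had 2 of 39 members 2-fold or more lower and 0 higher (median −0.08), near the 4.49% lower over all genes. They were CDC20, an activator of mitotic exit (301 and 688), and the survivin gene BIRC5 (152 and 350, with 148 on PC3-L). Among 7 genes of cell cycle inhibitors and D-type cyclins RBL2, a retinoblastoma relative, was higher (215 and 66.3, 3.21-fold) and the other 6 were within 2-fold (median −0.13). Ribosomal protein genes were higher in 1 of 32, RPL26 (451 and 202), and lower in 0 (median 0.09), against 5.46% and 4.49% of all genes. Cancer-testis genes were higher in 2 of 5 (median 0.39), both GAGE genes, GAGE2A (256 and 42.9) and GAGE12J (234 and 42.4), whose copies are nearly identical and may share signal. The median of that list was 1.16 against PC3-L.

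The share of genes past 2-fold varied by chromosome. On chromosome 18, 22 of 159 genes were higher on LNCaP (13.8%) and 8 lower (5.03%). On chromosome 4, 47 of 389 were higher (12.1%) and 16 lower (4.11%), and the median log2 difference there was 0.25, the largest of the chromosomes. Chromosome 20 ran the other way, with 4 of 332 higher (1.20%) and 19 lower (5.72%, median −0.14), and so did chromosome 11, with 17 of 644 higher (2.64%) and 40 lower (6.21%). Chromosome 22 had few of either, 5 and 4 of 288. Genes of a chromosome are not independent, and no test was made. The difference also moved with gene length: with genes split by length into 3 equal classes, 320 of the 3719 longest were higher and 194 lower, and of the 3719 shortest 100 and 166. The part of gene length in the chromosome shares was not tested.

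**Figure D4:**
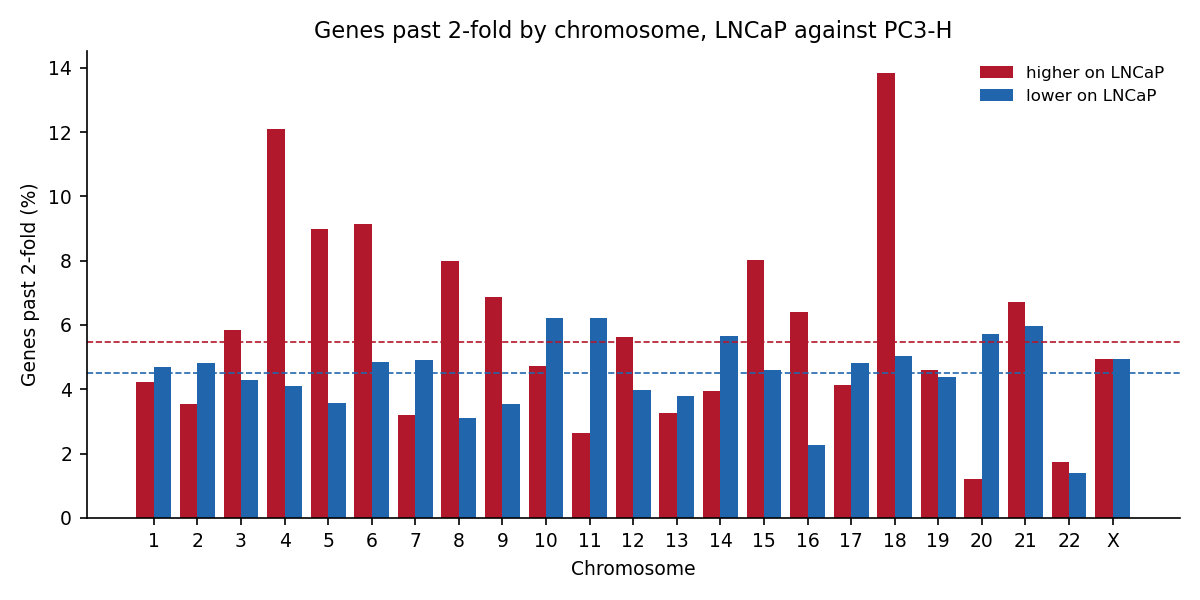
Percentage of genes past the filter on each chromosome that were 2-fold or more higher (red) or lower (blue) on LNCaP than on PC3-H. Dashed lines give the shares over all genes, 5.46% and 4.49%. Chromosomes 4 and 18 have the tallest red bars and chromosomes 20 and 22 the shortest.

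Runs of neighbouring genes were also read, in the gene order of RefSeq. The windows held 25 neighbours, overlapped and numbered 10597. They were ranked by the mean log2 difference, with each gene limited to a size of 1. On each chromosome the most extreme window in each direction was kept. Given as a description are the most extreme of those kept and, further down the order, the 1 that holds POMK. Extremes picked from so many windows are expected to lean one way, and no test was made. From ZNF146 to ZNF571 on chromosome 19, a stretch of zinc finger genes, 6 of 25 genes were higher and 0 lower, with a median of 0.70. From CENPK to FCHO2 on chromosome 5, 9 were higher and 0 lower (median 0.83), the junction genes MARVELD2 and OCLN among them. Between EID1 and CGNL1 on chromosome 15, 8 were higher and 0 lower (median 0.65), and between CDK19 and SERINC1 on chromosome 6, 10 and 0 (median 0.75). POMK lay in a stretch from VDAC3 to SDCBP on chromosome 8 with 7 higher and 0 lower (median 0.74). On the lower side, from MAP4K5 to MAPK1IP1L on chromosome 14 there were 0 higher and 7 lower (median −0.81). From ZNRD2 to CNIH2 on chromosome 11 there were 0 and 6 (median −0.53), FOSL1 and CST6 among them. Against PC3-L the medians of these stretches were 0.33, −0.19, 0.16, 0.01, 0.07, −0.51 and −0.26 in the order given.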

How the data were processed

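Total RNA was measured on Affymetrix whole-transcript arrays, 1 per culture; per the labels' protocols ISOGEN II was used for extraction and a whole-transcript terminal kit for labelling with biotin. The authors deposited intensity values on a linear scale (17.9 to 11103 on LNCaP, 17.7 to 11188 on PC3-H), already brought to like distributions, with medians of 40.8 and 41.2. Background correction, summarisation and normalization are not given in the sources used here. The number of arrays limits the precision.

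Of 37934 probes, 14952 had 1 gene symbol, 0 several and 22982 none in the platform annotation; all 14006 genes matched RefSeq (GRCh38.p14) by Entrez identifier. Each gene was read from its brightest probe by mean intensity on all 4 arrays. Differences are log2(LNCaP + 1) − log2(PC3-H + 1), over genes at or above the 40th percentile on at least 1 array of the pair; of 583 genes with over 1 probe, 57 had a probe past 2-fold and 17 all probes past it in 1 direction. Counts use 2-fold. Python 3.11.15, pandas 2.3.3 and numpy 2.4.6 were used, and the computation was tested on simulated data.

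Members and lists were chosen with earlier results of these data known. The genes named are the 15 largest differences per direction (no small RNAs, uncharacterised frames or Y-linked genes), all measured glycan genes and line markers. To these come up to 5 members of other lists per direction past 2-fold, in some lists more, and the 2 brightest markers of each cell type. Members within 2-fold, families and chromosome stretches were chosen after their values were seen. Alternatives tried were other pseudocounts, filters, scalings and probe rules, removal of a trend with gene length and spacing, a 4-fold threshold and the PC3-L array in place of PC3-H. Another gene list and some genes of known loss are not reported here.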

Additional observations from a re-analysis of the deposited data

How the results depend on the processing

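No paired analysis was possible because each group had 1 array. The counts of genes past 2-fold stayed within 1.5 times of the reported ones under other pseudocounts, filters, scalings, probe rules and removal of the trend with gene length, with 815 (pseudocount of 16) to 1142 genes (no pseudocount). At 4-fold there were 220, of which 91 higher and 129 lower. With the PC3-L array in place of PC3-H, the genes lower on LNCaP numbered 804. Alternatives were followed in 179 genes: the 15 largest differences per direction, all list members past 2-fold, glycan genes and line markers. Of these, 32 past 2-fold changed sign with PC3-L in place of PC3-H and under no other alternative. A further 37 crossed 2-fold with their sign kept under that exchange. DKK1 (−0.05), C3 (−0.04), MME (0.08) and KRT19 (−0.14) fell within 2-fold, while VIM (−3.76), UCHL1 (−1.93) and SPDEF (3.30) passed it. The remaining 110 did neither. Against PC3-L the log2 difference became positive for CDA (0.13), CFB (0.14), CST6 (0.14), CXCL5 (0.11), EBP (1.17), EPCAM (3.34), FST (0.17), IFITM2 (1.83), ISG15 (0.059), KRT80 (0.10), L1CAM (0.22), LCN2 (0.48), PKP1 (0.018), S100A14 (0.17), SAA1 (0.20), SFN (0.20), SLPI (2.28), SRGN (0.28), ST14 (1.79), STEAP4 (0.17) and BIRC5 (0.035). It became negative for ADAM9 (−0.31), ASCC3 (−0.074), ASNS (−0.82), INSIG1 (−2.34), MPHOSPH9 (−0.018), MSMO1 (−1.88), PSAT1 (−0.25), RPL26 (−0.0035), SCD (−0.97), SESN2 (−0.27) and VLDLR (−0.98). The cause was not tested. A pseudocount of 16 took 22 of the 179 genes across 2-fold, the mean over probes 4, the trend removal 8 and quantile normalization 2. With the filter at the 60th percentile the medians of the basal and cancer-testis lists were −1.27 and 2.44. Values near the floor of the arrays have no reliable order.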

Other observations

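Some further large differences are given here, chosen after their values were seen. Higher on LNCaP were ABHD2, a lipid hydrolase (1480 against 146 on PC3-H, 10.1-fold), the sestrin gene SESN3 (283 against 30.8, 8.93-fold), the ephrin ligand EFNA5 (504 against 56.7, 8.74-fold) and the X-linked histone demethylase KDM6A (670 against 76.9, 8.61-fold). Lower on LNCaP were the prostaglandin synthase PTGES (51.1 against 583, 11.2-fold), which works downstream of PTGS2, the hypoxia factor EPAS1 (38.9 against 442, 11.1-fold), EXT1, which polymerises heparan sulfate (63.6 against 595, 9.22-fold), and the matrix glycoprotein TNC (39.3 against 370, 9.21-fold). PTGES was 91.2 on PC3-L and EPAS1 512.

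Genes whose symbol begins with ZNF, antisense RNAs and pseudogenes of that name included, were higher on LNCaP in 38 of 423 and lower in 3 (median 0.24), against 5.46% and 4.49% of all genes; the lower ones were ZNF185, ZNF496 and ZNF593. The GAGE genes were higher in 6 of 6 past the filter, between 234 and 318 on LNCaP and between 30.3 and 48.9 on PC3-H. Of 21 SNORA and SCARNA genes 4 were lower and 0 higher: SCARNA6 was 109 and 533, SCARNA5 377 and 1312, SCARNA9L 59.0 and 180, and SCARNA7 244 and 518. Of 385 microRNA genes past the filter 5 were higher and 4 lower. Probes without a gene symbol past the filter numbered 12610, with 592 higher and 422 lower.

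Among the microRNA genes, 3 are shown with their main mature sequences from RefSeq (GRCh38.p14), chosen after their values were seen, to show which microRNAs the named loci give; capitals mark the seed, bases 2 to 8. MIR205, a microRNA of basal epithelium, was 26.1 on LNCaP and 60.6 on PC3-H. MIR3189 lies within the GDF15 gene and was 215 and 26.1, in the direction of its host. MIR99A was 101 and 49.4. The probes target the gene and do not separate the mature form from precursor or host transcripts.
hsa-miR-205-5p: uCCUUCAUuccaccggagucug
hsa-miR-3189-3p: cCCUUGGGucugaugggguag
hsa-miR-99a-5p: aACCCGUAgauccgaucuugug
The seeds of these 3 microRNAs differ from one another.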
